A study of Mus musculus with 33 samples.

Results

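Three-way chromatin contacts of a viewpoint beside the mouse V gene *Trav17* were compared between CD4+CD8+ double-positive (DP) thymocytes, in which the *Tcra* gene is assembled, and liver cells. The comparison used every library whose label gives the *Trav17* bait, the Rag1-/- background, intact EACBE and either DP thymocytes or liver, which is 5 of the 33 libraries of the series, 3 of DP thymocytes and 2 of liver cells. The DP thymocytes came from CBE+/+ Rag1-/- mice of the C57BL/6 strain that received an anti-CD3 antibody when 3 weeks old, with thymi collected 10 days afterwards. The liver cells came from CBE+/+ Rag1-/- C57BL/6 mice, and neither their age nor an injection is stated for them. All 5 libraries therefore lack RAG1, so the locus is unrearranged in both tissues, and CBE+/+ means that the CTCF site group EACBE downstream of the enhancer Eα is intact. A further 3 libraries of DP thymocytes from CBE-/- Rag1-/- mice (EACBE-/-), made with the same bait, are set beside the same liver libraries at the end. DP thymocytes induced by anti-CD3 in RAG1-deficient mice stand in for DP thymocytes that have passed β-selection, and liver is a mixture of cells given only as a tissue. The files hold contacts and no expression, so neither cell type could be checked against its markers. The paper speaks of biological replicates, and of experimental replicates for both tissues. Neither it nor the labels say whether the libraries of a group came from separate animals. A p-value here therefore measures the spread between these libraries, which need not be that between animals and may be partly technical.

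The *Tcra*–*Tcrd* locus on chromosome 14 carries a long array of V genes, then the Dδ, Jδ and Cδ genes of *Tcrd*, then the Jα array and *Trac*, and the enhancer Eα lies just behind *Trac*. In DP thymocytes a proximal Vα gene is joined to a Jα gene that can lie far away, the first Jα genes are activated by the promoter TEAp, and the INT elements between the V genes and *Tcrd* are CTCF sites that form loops with TEAp. 3C-HTGTS ligates DNA that lies close together in fixed nuclei and reads outward from one bait, and a read that crosses the bait and a pair of further fragments reports a three-way contact.

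The bait is the MboI fragment chr14:53804241-53805068 (mm10), which lies between genes, 1.57 kb before the start of *Trav17* (chr14:53806639-53807115, plus strand). Its primers read on the minus strand. The paper places this bait on the fragment that holds *Trav17*-CBE2, a CTCF site upstream of *Trav17*. It describes the orientation of that site as unique within the proximal V region. The stretch between the nested primer and the restriction site at which other fragments were ligated is printed to show where every contact below begins, and capitals mark the MboI site (chr14:53804241-53804275, minus strand).

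Trav17 bait: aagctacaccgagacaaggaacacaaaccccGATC

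CTCF is the protein at which loop extrusion halts, and CTCF sites lie beside *Trav17* and in the INT elements, so the region was searched on both strands for the letters CCANNAGNNGGC, a short core of the CTCF motif. There were 20 matches in 18 of the 112 bins of 5 kb (16.1%), and 797 of 32851 promoter windows of RefSeq genes (GRCm38.p6) hold the same letters (2.43%). Promoter windows are not bins of 5 kb, so these shares cannot be compared as rates. Whether the region holds an excess of matches was not tested. The matches in 5 of the places described below are printed with the matched letters in capitals, in the order of their position (all plus strand, mm10), and the distance given is from the bait. They start at chr14:53776875-53776886 beside *Trav3-4* and *Trav12-4*, at chr14:53806402-53806413, 1334 bases from the bait and just before *Trav17*, at chr14:53875364-53875375 near *Trav21-dv12*, at chr14:54059964-54059975 in the INT interval and at chr14:54239239-54239250 within *Dad1*.

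Trav3-4 and Trav12-4: agaagctgtCCACAAGGGGGCagagcatct

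Trav17: cacctttgaCCACAAGGGGGCactgttgca

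Trav21-dv12: tgtaagagtCCACAAGGAGGCtggtgcttc

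INT interval: gtcaggggaCCACTAGATGGCagcagatgg

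Dad1: aaggtgcatCCACTAGATGGCggcagagtg

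A match is a stretch of letters and not a measured site, and a site can lack a match, as does the bait fragment on which the paper places *Trav17*-CBE2. The matches at *Trav3-4* and at *Trav17* carry the same matched letters, as do those of the INT interval and *Dad1*.

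The values are counts of reads per pair of 5 kb bins, each read giving 1 pair of fragments. In the region chr14:53740001-54300000 the DP libraries held 15802, 16686 and 71922 pairs and the liver libraries 1247 and 675. The liver pairs were also piled on few positions. They fell on 189 and 108 bin pairs, against 1927 to 2157 in DP thymocytes, and 25 and 40 of the 112 bins held no liver fragment. At an equal depth of 994 reads of the deposited window, 418 to 438 bin pairs were expected to be occupied in a DP library, and 157 and 108 in liver. The single most frequent bin pair held 8.26% and 8.89% of the liver pairs and 2.24% to 3.49% of the DP pairs. In both liver libraries it was the bin of *Trav18* paired with itself (103 and 60 reads). A DP read was repeated 2.51, 2.53 and 10.3 times per distinct pair of fragments, and the figure is not known for liver. Reads that are PCR copies are not independent, so intervals and floors below cover counting error only. A count of 3, taken as the floor of detection, is 0.120% and 0.222% of the fragments of the liver libraries and 0.0780% of both together. Over bins, the Pearson correlation was 0.973 to 0.988 between DP libraries, 0.910 between the liver libraries and 0.660 to 0.761 between tissues. These are descriptions over bins of libraries that share a bait.

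The first question was whether the bait reached the locus as often, and in the same direction, in both tissues. Of all pairs in the deposited window (chr14:53010001-55300000), 66.8%, 70.8% and 67.4% lay wholly in the region in DP thymocytes, and 68.6% and 67.9% did in liver. Within 500 kb of the bait, 69.2%, 70.5% and 69.9% of DP fragments and 71.2% and 66.4% of liver fragments lay downstream, toward Eα. The groups overlapped in both measures, and the exact permutation p over libraries (two-sided) was 1 and 0.8. With 3 libraries against 2 that test cannot give a p under 0.1, so each p of 0.1 below is the smallest possible and means only that the groups did not overlap. As read counts, liver could thus not be told apart from DP thymocytes on either measure. The downstream share depended on how repeated positions were weighed. Without pairs in a single bin its means were 68.4% in DP thymocytes and 61.9% in liver, and with each bin pair counted by its presence at equal depth 72.4% and 62.7%, and in both cases the groups did not overlap.

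Downstream fragments reached farther in DP thymocytes when all reads were counted. In liver, 8.26% and 8.89% of the region's pairs were the *Trav18* bin with itself, 27.4 kb downstream. The distances here and the distance bands below were not tested without pairs in a single bin. Ordered by distance, the nearest 50% of the downstream fragments within 500 kb lay within 210, 230 and 200 kb of the bait in DP thymocytes and within 70 and 95 kb in liver. Upstream the nearest 50% lay within 25, 20 and 25 kb in DP thymocytes and within 45 and 35 kb in liver, while the nearest 25% lay within 10 kb in every DP library and within 5 kb in both liver libraries. By the median distance the DP bait thus had a long arm toward Eα and a short one into the V array, and the liver arms were more alike.

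The distance bands show where this arose, given as shares of all fragments in the window. Between 20 and 60 kb downstream, which holds *Trav18* and *Trav19*, DP thymocytes had 6.88%, 6.33% and 7.67% of their fragments and liver 15.6% and 13.1%. Between 250 and 500 kb downstream, which runs from the INT elements past *Dad1*, DP thymocytes had 22.0%, 23.6% and 21.9% and liver 9.46% and 13.7%. Upstream at the same 250 to 500 kb, in the V array, the values were 1.37%, 1.23% and 1.48% in DP thymocytes against 3.36% and 4.23% in liver. The near band was thus higher in liver, and of the far bands the downstream one was higher in DP thymocytes and the upstream one in liver. None of these groups overlapped (exact permutation p = 0.1 for each).

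Both sides can be set against each other at matched distance. Of the fragments 250 to 500 kb away, 94.1%, 95.1% and 93.7% lay downstream in DP thymocytes against 73.8% and 76.4% in liver. Of those within 20 kb, 25.8%, 24.2% and 31.9% lay downstream in DP thymocytes against 53.2% and 41.4% in liver. The downstream share in DP thymocytes therefore climbed across the bands, from 27.3% ± 4.04 (SD, n = 3) within 20 kb through 51.7% ± 1.85 at 20 to 60 kb and 78.0% ± 1.56 and 85.2% ± 2.26 in the bands between to 94.3% ± 0.695 at 250 to 500 kb. In liver it was 47.3% ± 8.36 (SD, n = 2) within 20 kb, and its means lay between 72.8% and 78.5% in the 4 bands from 20 to 500 kb. Farther out, at 500 to 750 kb, the downstream share was 97.6% ± 0.345 in DP thymocytes and 93.6% ± 1.13 in liver, so that the tissues came close again. The groups did not overlap in any of these bands (exact permutation p = 0.1 for each).

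**Figure D1:**
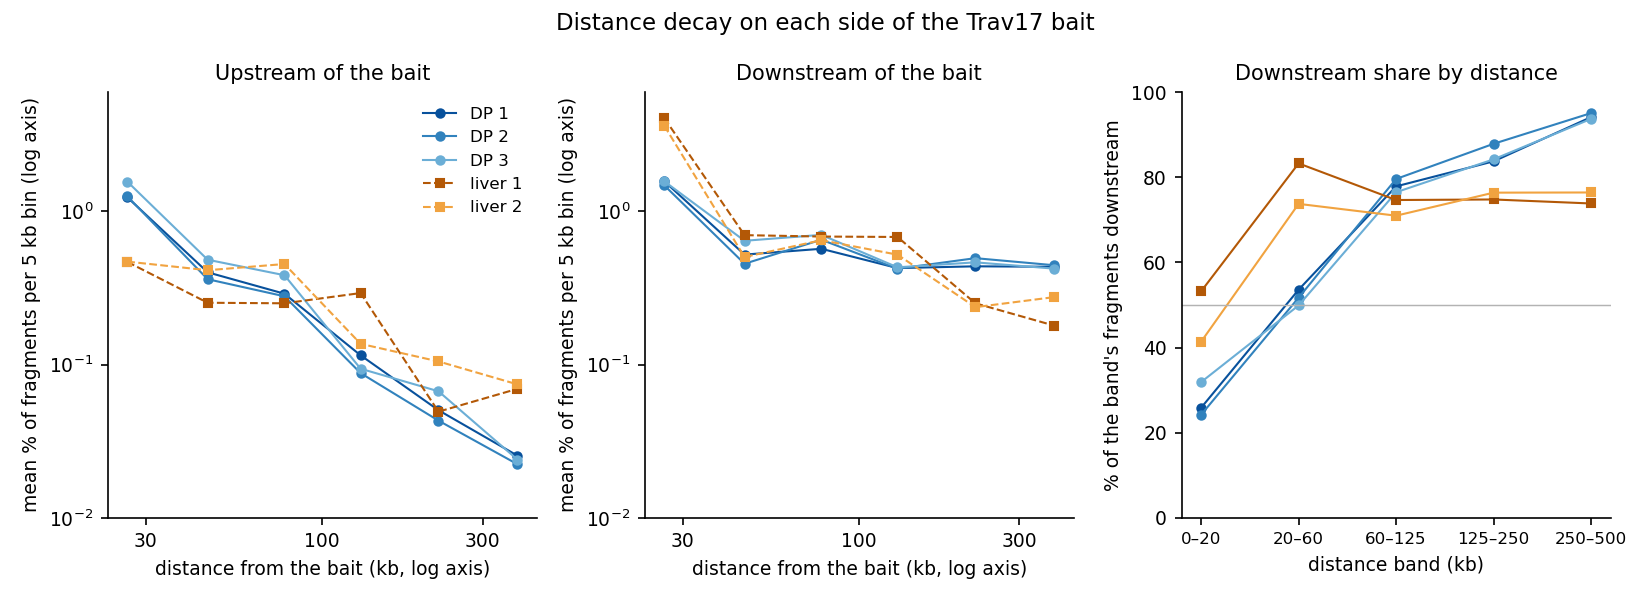
The left and middle panels plot the mean share of fragments per 5 kb bin (percent, log axis) against distance from the bait (kb, log axis) upstream and downstream of it, and the right panel the share of each distance band's fragments that lay downstream (percent), with 1 line per library. Downstream the liver lines start above the DP lines and end below them, and upstream they start below and end above. The mean downstream share of the DP libraries climbs to 94.3% at 250 to 500 kb. That of the liver libraries is 47.3% within 20 kb and lies between 72.8% and 78.5% in the other bands drawn. In those bands the single liver libraries range from 71.0% to 83.2%.

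The slope of log10 contact share on log10 distance from 20 to 500 kb, over both sides, was -0.61, -0.58 and -0.68 in DP thymocytes against -0.97 and -0.85 in liver. Downstream alone it was -0.39, -0.33 and -0.43 against -1.01 and -0.83, and upstream alone -1.43, -1.49 and -1.52 against -0.77 and -0.78. From 50 to 300 kb, leaving out the nearest bins, it was -0.36, -0.28 and -0.47 against -0.60 and -0.52 (exact permutation p = 0.2). Contacts of the DP bait fell off less with distance toward Eα and more into the V array than those of the liver bait. The difference over both sides was 0.28 (exact permutation p = 0.1). It was 0.26 without pairs in a single bin and 0.15 with each bin pair counted by its presence at equal depth, and the groups did not overlap in either case. It was 0.12 with overlapping groups (exact permutation p = 0.3) when the most frequent bin pair of each library was left out, which took a pair from within this range of distances in liver alone.

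The second question was which fragments met in one contact. Pairs were sorted by the side of the bait on which their fragments lay, leaving out pairs with a fragment in a bin that the bait fragment spans. Of the pairs left, those with 1 fragment on each side of the bait made up 21.6%, 19.7% and 22.2% in DP thymocytes against 4.98% and 3.90% in liver, 4.77-fold more in DP thymocytes by the means. Pairs with both fragments downstream made up 66.7%, 68.0% and 66.8% against 82.3% and 76.3%, and pairs with both upstream 11.72%, 12.33% and 11.05% against 12.7% and 19.8%. A contact of the liver bait thus stayed more often on one side of it (exact permutation p = 0.1 for each class). Without pairs in a single bin, the means for 1 fragment on each side were 28.1% in DP thymocytes and 11.5% in liver, and by presence at equal depth 25.08% and 11.04%, so the fold was smaller than with all reads although the groups did not overlap. For both fragments downstream the means without pairs in a single bin were 62.1% and 69.3%.

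The distance between the pair of fragments differed as well. Both fragments fell in the same 5 kb bin in 19.3%, 25.3% and 22.7% of DP pairs and in 54.0% and 56.4% of liver pairs. They lay more than 20 bins apart in 33.6%, 31.6% and 34.2% of DP pairs and in 7.14% and 5.78% of liver pairs. Among pairs in different bins alone, 41.6%, 42.3% and 44.2% were more than 20 bins apart in DP thymocytes against 15.5% and 13.3% in liver, so the difference was present without same-bin pairs. Pairs 1 to 4 bins apart overlapped between the tissues, at 20.19% to 25.03% in DP thymocytes and 22.37% and 25.78% in liver (exact permutation p = 0.5). A higher same-bin share in liver was found with each of the 4 baits assayed in both tissues. It was 64.8% to 67.5% in liver against 22.5% to 26.8% in DP thymocytes for the Eα bait, 52.7% to 62.2% against 21.7% to 24.5% for TEAp and 32.8% to 38.4% against 17.2% to 26.4% for INT2. It is thus not particular to the *Trav17* bait, and the part that read copies have in it was not tested, since copies could not be counted in liver.

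**Figure D2:**
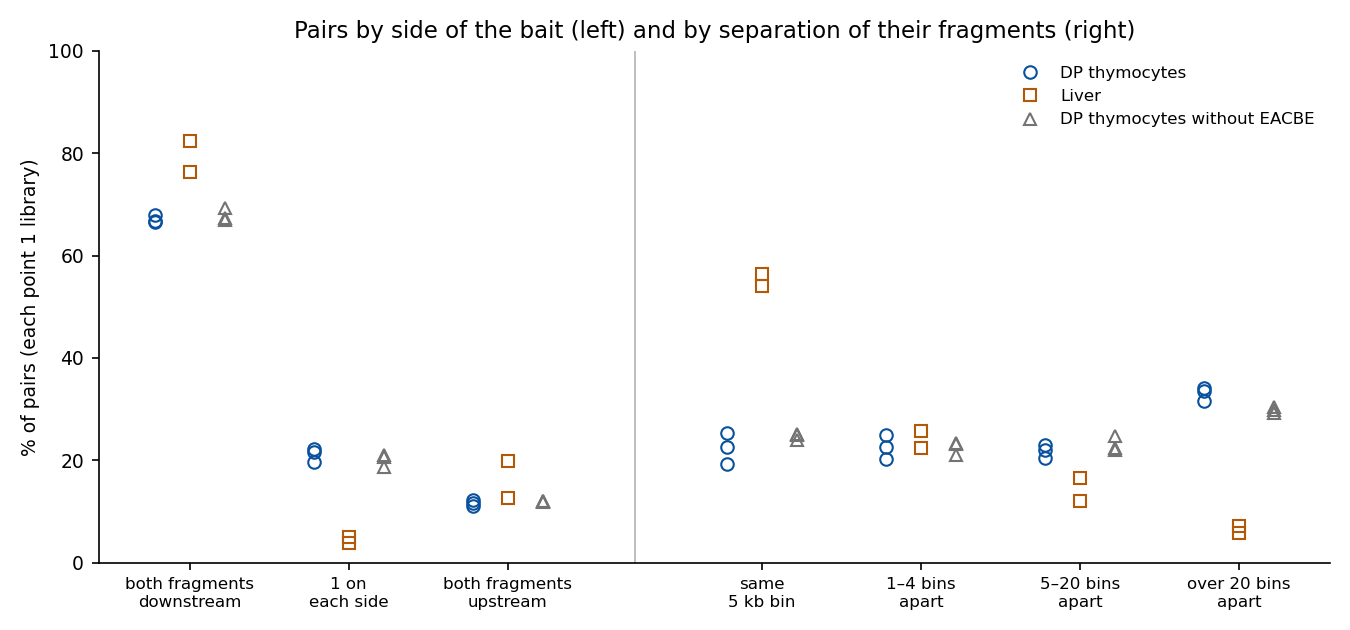
Share of pairs in the region (percent) by the side of the bait on which their fragments lie and by the distance between them in 5 kb bins, with 1 point per library (circles, DP thymocytes; squares, liver; triangles, EACBE-/- DP thymocytes). Pairs with a fragment in a bin that the bait fragment spans are left out of the shares by side and kept in those by distance. In liver, 54.0% and 56.4% of pairs lie in a single bin and 4.98% and 3.90% span the bait, and in DP thymocytes 19.3% to 25.3% and 19.7% to 22.2% do.

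The region was then summed into 11 intervals with bounds set by genes and elements. In 7 of them the DP and liver libraries did not overlap (63.6%), with exact permutation p = 0.1 each, or 0.157 after Benjamini-Hochberg adjustment over the intervals, so no single interval passed a threshold of 0.05. A bulk library cannot tell a contact that is rarer in every cell from one present in fewer cells.

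The proximal V region is the stretch from behind *Trav17* to *Trdv2-2* (chr14:53820001-53965000), whose Vα genes are the first to be used in *Tcra* assembly. It held 23.0%, 21.6% and 25.9% of the fragments in DP thymocytes against 46.4% and 37.7% in liver, and was the interval with the most liver fragments. Of the pairs that touched it, 15.7% to 20.1% lay in a single bin in DP thymocytes, and 56.8% and 61.7% did in liver. At equal depth, 157 to 181 occupied bin pairs touched it in each DP library and 82.0 and 47 did in liver. Liver thus had a larger share of its fragments there. It lay on fewer positions there, as over the whole region (157 and 108 occupied bin pairs at equal depth against 418 to 438). Without pairs in a single bin the means were 22.3% in DP thymocytes and 30.2% in liver. The neighbourhood of the bait (chr14:53790001-53820000) held 27.6%, 28.3% and 23.4% in DP thymocytes against 27.3% and 26.5% in liver, and the groups overlapped. The upstream V genes (chr14:53740001-53790000), from *Trav16* to *Trav12-4*, held 9.53%, 8.74% and 11.3% against 4.89% and 7.56%, and overlapped when bin pairs were counted by their presence at equal depth, with means of 10.7% and 10.2%.

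Past the V genes, the INT elements are boundary elements between the V array and *Tcrd*. The INT interval (chr14:54055001-54070000), the bin of INT2 with the bins just before it, held 4.28%, 5.51% and 4.95% of DP fragments and 1.56% and 0.741% of liver fragments, 4.26-fold more in DP thymocytes. Counted by presence at equal depth, the means were 5.34% and 2.74%, and the groups did not overlap. The stretch before it, which contains *Trav23* and *Trdv3* (chr14:53965001-54055000), held 9.84%, 9.35% and 9.18% against 7.74% and 9.78%, and the groups overlapped. The stretch from there to *Trdd1*, which contains *Trdv4* (chr14:54070001-54110000), held 3.72%, 4.03% and 3.62% against 1.76% and 3.11%, and with distinct pairs in the DP libraries it overlapped. The excess of DP fragments was thus larger in the INT interval than in either neighbour, 4.26-fold against 1.08-fold before it and 1.55-fold after it by the means, a difference that was not tested.

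The *Tcrd* interval from *Trdd1* to the bin before TEAp (chr14:54110001-54150000) carries the Dδ, Jδ and Cδ genes. Its share was 6.25%, 6.96% and 6.46% in DP thymocytes against 4.29% and 1.93% in liver, and the liver libraries differed more from each other than the DP libraries did. TEAp with the first Jα genes, *Traj61* to *Traj56* (chr14:54150001-54160000), held 0.949%, 1.25% and 1.51% in DP thymocytes. In liver the same interval held 0.241% and none, 6 fragments in all.

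*Trac*, the constant gene, and Eα (chr14:54220001-54230000) held 1.41%, 1.70% and 1.51% of DP fragments and none of the 3844 liver fragments. Set against a floor of 3 fragments over both liver libraries, the DP share was at least 19.7-fold higher. That bound takes fragments as independent and so covers counting error alone, while the liver pairs lay on only 189 and 108 bin pairs. At equal depth 14.8 to 17.5 occupied bin pairs touched *Trac* and Eα in a DP library, and none did in liver. The Jα genes between, *Traj55* to *Traj1* (chr14:54160001-54220000), gave 9.02%, 8.63% and 8.23% against 4.09% and 8.37% and overlapped. So did *Dad1*, a housekeeping gene, and its flank (chr14:54230001-54300000), with 4.44%, 3.91% and 3.93% against 1.72% and 4.30%. By share of fragments, both of these intervals in the second liver library were thus close to DP thymocytes, while *Trac* and Eα between them held no fragment. By positions they were lower, but so was that library over the whole region, with 108 occupied bin pairs at equal depth against 418 to 438. Whether these intervals were sparser than the library as a whole was not tested. At equal depth 10 occupied bin pairs touched *Traj55* to *Traj1* in that library, against 64.9 to 68.1 in the DP libraries. For *Dad1* and its flank there were 8, against 34.9 to 38.5.

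**Figure D3:**
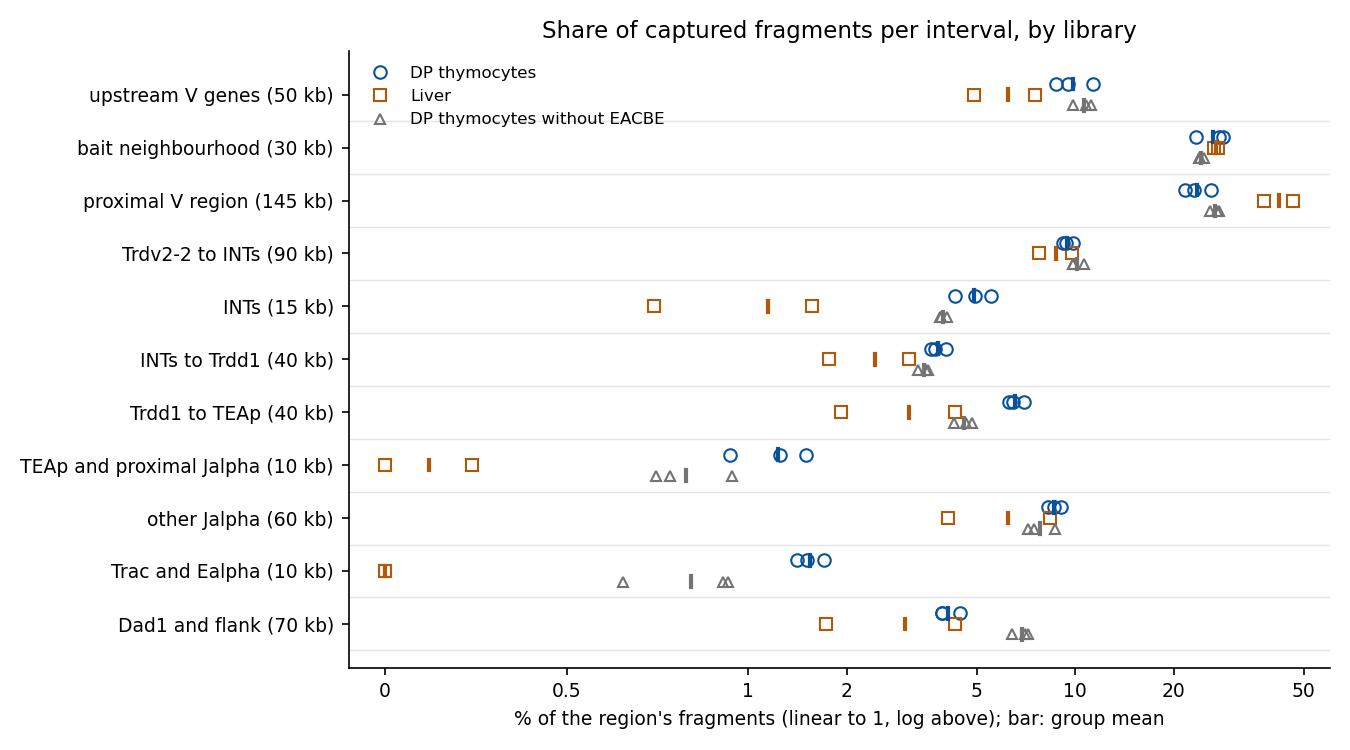
Share of region fragments (percent, on an axis that is linear up to 1 and logarithmic above) in each of the 11 intervals from the upstream V genes to *Dad1*, with 1 point per library (circles, DP thymocytes; squares, liver; triangles, EACBE-/- DP thymocytes) and a bar at each group mean. The proximal V region is higher in liver (46.4% and 37.7% against 21.6% to 25.9%), and the INT interval, TEAp with the first Jα genes, and *Trac* with Eα are higher in DP thymocytes.

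Single 5 kb bins were tested with edgeR on the counts, with the region total as library size. Of the 108 bins with at least 10 counts, 26 were higher in DP thymocytes (24.1%) and 9 lower (8.33%) at an adjusted p under 0.05, and 64 of all 112 bins did not overlap between groups (57.1%). DESeq2 called 23 higher and 14 lower. The median log2 difference over all tested bins was 0.73 with the region total, 0.64 with TMM scaling and 0.42 with DESeq2, so single bins are to be read against those medians. In 10 of the 26 higher bins no liver fragment was found. The bounds printed for such bins take fragments as independent and cover counting error alone. Without pairs in a single bin 36 bins were called, of which 23 were among these 35. Without DP replicate 2 the calls fell to 8 and 4 and without DP replicate 3 to 12 and 5.

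The calls were unevenly spread along the locus. Of the 9 lower bins, 6 lay in the proximal V region, 2 in the neighbourhood of the bait and 1 just past *Trdv2-2*, and none lay further away. The higher bins included all 3 tested bins of the INT interval, both bins of TEAp and the first Jα genes, both of *Trac* and Eα, 4 of 7 between *Trdd1* and TEAp, 3 of 12 in the rest of the Jα array, 3 of 13 around *Dad1*, 4 of 10 among the upstream V genes and 1 of 27 in the proximal V region. Of the 8 bins between the INT interval and *Trdd1*, none was called. Bins with a CTCF-like match were called higher about as often as the rest, 5 of 18 (27.8%) against 21 of 90 (23.3%).

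**Figure D4:**
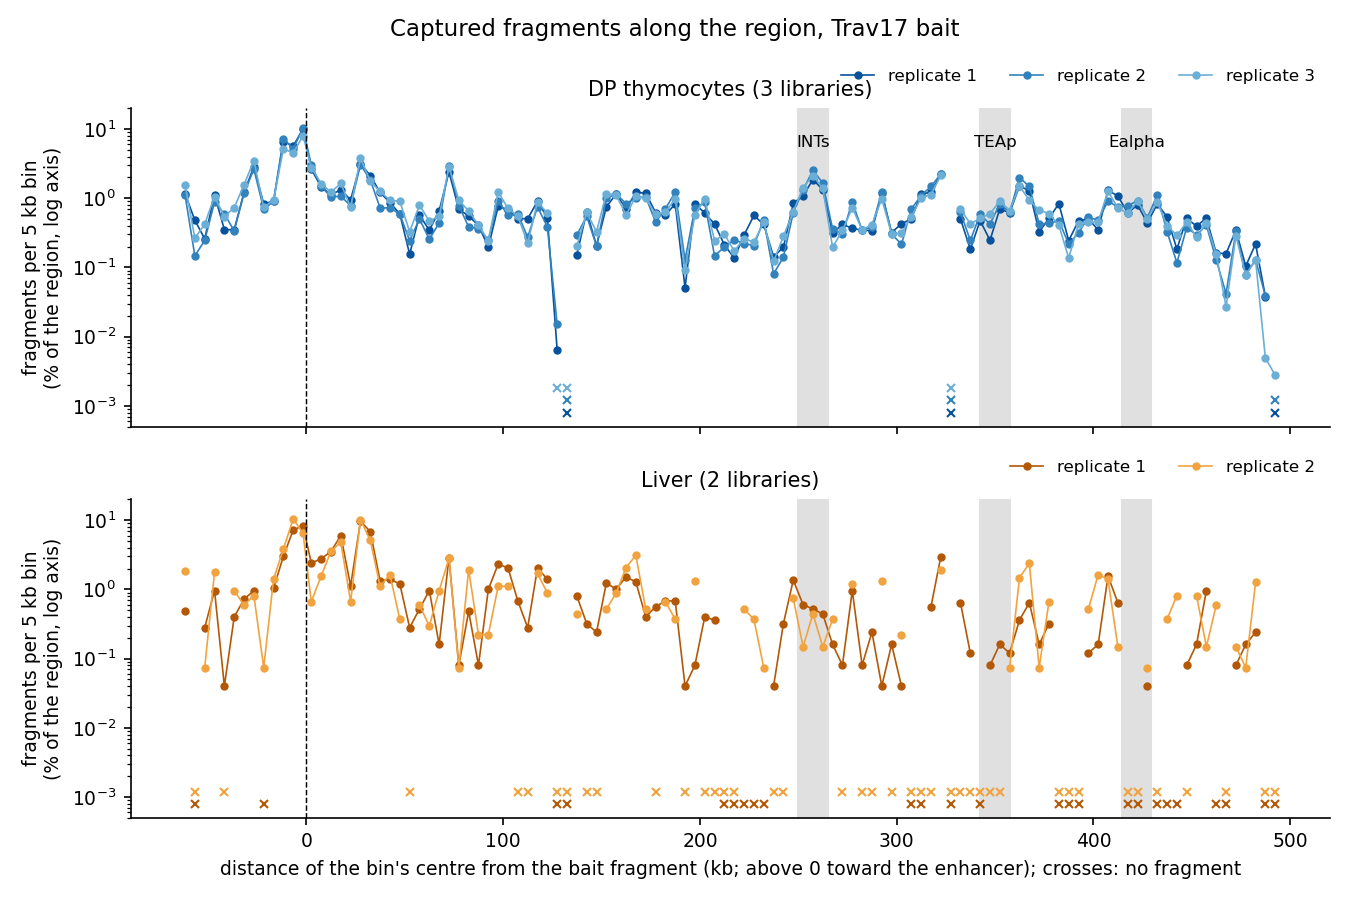
Share of region fragments (percent, log axis) in each 5 kb bin against the distance of its centre from the bait (kb), with 1 line per library, DP thymocytes above and liver below, crosses for bins with no fragment and grey bands at the INT elements, TEAp and Eα. The DP lines have few gaps and continue through all 3 grey bands, where the TEAp bin holds 0.247% to 0.595%, and the liver lines are broken by 25 and 40 empty bins, the bins of *Trac* and Eα among them.

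At the bait itself, its own bin (chr14:53800001-53805000) held 10.0%, 10.3% and 8.02% in DP thymocytes against 8.30% and 6.44% in liver (log2 difference 0.35, adjusted p = 0.216). The bin of *Trav17* held 2.64%, 3.03% and 2.78% against 2.41% and 0.667% (0.77 ± 0.37 SE, edgeR adjusted p = 0.132). Neither passed the threshold, although the *Trav17* groups did not overlap. The bin just upstream at chr14:53795001-53800000 was lower in DP thymocytes, with 5.70%, 5.22% and 4.53% against 7.26% and 10.4% (log2 difference -0.77 ± 0.22 SE, edgeR adjusted p = 0.0162), and that call was lost without pairs in a single bin (edgeR adjusted p = 0.0637). The next bin away, chr14:53790001-53795000, was higher in DP thymocytes, with 6.60%, 7.22% and 5.17% against 3.01% and 3.85% (log2 difference 0.90 ± 0.24 SE, edgeR adjusted p = 0.0135), and is given after its value was seen. A bin that was lower and a bin that was higher in DP thymocytes thus lay next to each other just upstream of the bait.

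Among the proximal V genes, *Trav18* had the highest liver share of any bin downstream of the bait. It held 9.66% and 10.2% of liver fragments and 3.15%, 3.07% and 3.81% of DP fragments (log2 difference -1.57 ± 0.20 SE, edgeR adjusted p = 2.32e-04). The call was lost when pairs in a single bin were left out of all libraries (log2 difference -0.21, edgeR adjusted p = 0.617). The largest fall among called bins was at chr14:53820001-53825000, 17.4 kb from the bait and without a gene, with 1.32%, 1.07% and 1.64% in DP thymocytes against 6.01% and 4.81% in liver (-2.02 ± 0.25 SE, edgeR adjusted p = 2.32e-04). It was -0.84 without pairs in a single bin, where it no longer passed (edgeR adjusted p = 0.0747).

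The other bins that fell were at 12.4, 32.4, 102.4, 117.4, 122.4 and 162.4 kb, with log2 differences from -1.66 to -1.16, and one of them, at 122.4 kb, holds *Trav22*. Of the V genes named in the proximal V region, *Trav19* held 0.864%, 0.728% and 0.932% against 1.40% and 1.63% and did not pass (log2 difference -0.83, edgeR adjusted p = 0.0625). *Trav21-dv12* held 2.402%, 2.898% and 2.870% against 2.89% and 2.81%, and *Trdv2-2*, a Vδ gene, 1.16%, 1.15% and 1.11% against 1.00% and 0.889%, with edgeR adjusted p of 0.81 and 0.594. With all pairs, no difference was thus detected at *Trav19*, *Trav21-dv12* or *Trdv2-2*. Without pairs in a single bin the log2 difference changed sign at *Trav21-dv12*, to higher in DP thymocytes, and at *Trdv2-2*, to lower. The bin of *Trdv1* was the one higher bin of this stretch, with 0.693%, 0.779% and 0.930% in DP thymocytes and 3 liver fragments in all, a ratio of 10.3 (95% counting interval 3.51 to 49.7, edgeR adjusted p = 0.00326), and is named after its value was seen.

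Further on, *Trav23* held 1.19%, 1.05% and 0.992% against 0.401% and 0.519% and rose (log2 difference 1.26 ± 0.41 SE, edgeR adjusted p = 0.0352). *Trdv3* held 0.832%, 0.722% and 0.575% against 0.0802% and 1.33%, and here the liver libraries lay on either side of the DP libraries. The bin of INT2 (chr14:54065001-54070000) held 1.33%, 1.65% and 1.39% against 0.441% and 0.148% (2.15 ± 0.45 SE, edgeR adjusted p = 0.00363). The bin before it, chosen after its values were seen, held 1.86%, 2.55% and 2.13% against 0.521% and 0.444% (2.15 ± 0.36 SE, edgeR adjusted p = 8.28e-04). The bin of INT2 and the bin before it were thus several times above liver in every DP library. The first bin of the INT interval (chr14:54055001-54060000), also given after its values were seen, differed less from the first liver library. It held 1.09%, 1.31% and 1.43% in DP thymocytes against 0.601% and 0.148% in liver (edgeR adjusted p = 0.0216).

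In *Tcrd*, the bin just before *Trdd2* (chr14:54115001-54120000) held 1.16%, 1.09% and 1.01% of DP fragments and none in liver, at least 13.9-fold more over the pooled floor (edgeR adjusted p = 4.02e-04). That bound was the highest of any bin. The bins of *Trdd1* and of *Trdc* with *Trdv5*, the Cδ gene and a Vδ gene behind it, also had no liver fragment, with bounds of at least 7.43-fold and 6.71-fold. *Trdd2* with *Trdj1* held 1.22%, 1.48% and 1.13% against 0.561% and none (1.89 ± 0.61 SE, edgeR adjusted p = 0.0325). Liver was not empty in *Tcrd*, however. The bin past them (chr14:54125001-54130000), given after its values were seen, held 2.21%, 2.24% and 2.15% against 2.97% and 1.93%. Its groups overlapped (log2 difference -0.19, edgeR adjusted p = 0.625). In the second liver library it held all 26 fragments of the interval, on 1 bin pair.

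At the start of the Jα array, the bin of TEAp (chr14:54150001-54155000) held 0.247%, 0.423% and 0.595% in DP thymocytes and 2 liver fragments in all, a ratio of 8.10 (95% counting interval 2.24 to 66.9, edgeR adjusted p = 0.0473). *Traj61* to *Traj56* held 0.702%, 0.827% and 0.912% against 0.1604% and none (log2 difference 3.01 ± 0.72 SE, edgeR adjusted p = 0.00862), and that call was lost without DP replicate 2 (edgeR adjusted p = 0.0799). Within the Jα array, the bins of *Traj33* to *Traj30* and of *Traj24* to *Traj20* had no liver fragment, with bounds of at least 7.33-fold and 5.16-fold.

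*Trac* held 0.617%, 0.773% and 0.610% of DP fragments and none in liver, at least 8.54-fold more (edgeR adjusted p = 0.00222). The bin of the Eα bait held 0.797%, 0.926% and 0.898% and none, at least 11.2-fold more (edgeR adjusted p = 7.27e-04). The next bin (chr14:54230001-54235000), given after its values were seen, held 0.440%, 0.524% and 0.504% in DP thymocytes. Each liver library held 1 fragment there, 0.0401% and 0.0741%, and the bin was called higher in DP thymocytes (edgeR adjusted p = 0.0142). Past it, the bin with the 3′ end of *Dad1* and a CTCF-like match (chr14:54235001-54240000) held 0.823%, 1.11% and 0.884% and none, at least 12.02-fold more (edgeR adjusted p = 7.27e-04). The following bin of *Dad1* held 0.541%, 0.330% and 0.403% against none and 0.370% and overlapped (edgeR adjusted p = 0.226). The bins of *Trac*, of Eα and of the 3′ end of *Dad1* were thus each reached from the bait in every DP library and in neither liver library at this depth.

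On the other side of the bait, the bin of *Trav3-4* and *Trav12-4*, which holds the match that shares its letters with the one at *Trav17*, held 2.84%, 2.64% and 3.49% in DP thymocytes against 0.962% and 0.815% in liver (log2 difference 1.73 ± 0.30 SE, edgeR adjusted p = 0.00107). It is described because of that match, after its value was seen. A gene-free bin at chr14:53745001-53750000 held 0.481%, 0.147% and 0.264% and none in liver, at least 3.81-fold more (edgeR adjusted p = 0.0441), a call lost without pairs in a single bin (edgeR adjusted p = 0.0713). One before the INT elements at chr14:54015001-54020000 was also empty in liver, with a bound of at least 3.04-fold.

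The three-way contacts were then summed over pairs of intervals, so that each value is the share of pairs that joined the bait to both intervals at once. All 66 pairs of intervals were tested with edgeR, and 34 were higher in DP thymocytes (51.5%) and 3 lower (4.55%), while 55 did not overlap between the groups (83.3%). In 20 of the 34 no liver read was found, and their bounds below take reads as independent and cover counting error alone. DESeq2 called 12 higher and 7 lower, so the share of calls that were higher was 63.2% in place of 91.9%, and the median log2 difference over all interval pairs was 1.54 with DESeq2, 2.97 with TMM scaling and 3.34 with the region total. The calls also depended on DP replicate 2, without which 3 higher and 1 lower were left, and on pairs within one bin, without which there were 14 higher and 5 lower.

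The lower calls were all within one interval and all but one of the higher calls joined different intervals. Of the 11 combinations of an interval with itself, 3 were lower and 1 higher, and of the 55 combinations of different intervals, 33 were higher and none lower. Of the 9 combinations that span the bait, 6 were higher. Pairs with both fragments in the proximal V region made up 11.8%, 11.8% and 13.9% of DP pairs and 40.02% and 31.70% of liver pairs (log2 difference -1.52 ± 0.13 SE, edgeR adjusted p = 3.70e-07). That call was kept with every alternative, with a log2 difference of -1.04 without pairs in a single bin and -1.22 without the most frequent bin pair of each library, which lay in this region in both liver libraries and in no DP library. The other lower combinations were the stretch from *Trdv2-2* to the INT elements with itself (3.66%, 4.14% and 3.67% against 6.09% and 8.30%) and the neighbourhood of the bait with itself (14.9%, 15.2% and 10.9% against 19.5% and 17.2%).

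**Figure D5:**
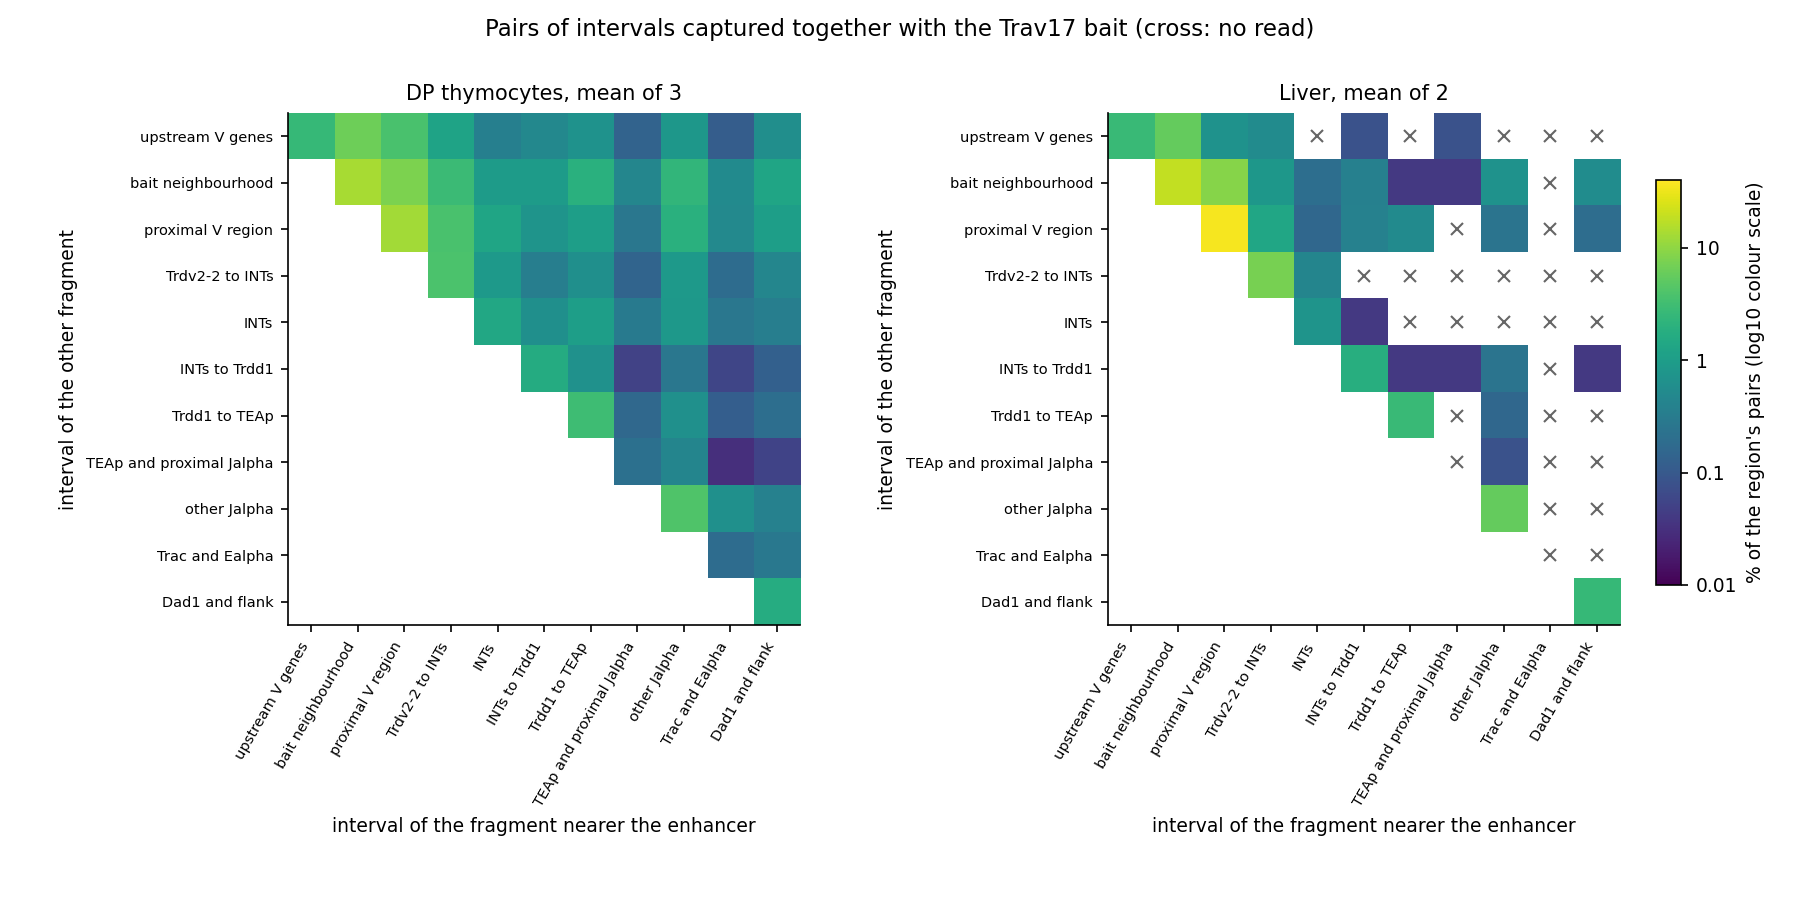
Mean share of pairs in each combination of the 11 intervals in DP thymocytes and in liver (percent, colour on a log scale), with a cross where no read was found. Liver pairs concentrate on the diagonal, above all in the proximal V region with itself, and 30 of the 66 combinations are crossed in liver and none in DP thymocytes.

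Across the bait, the upstream V genes joined with the proximal V region made up 4.08%, 2.51% and 4.36% of DP pairs and 0.642% and 0.741% of liver pairs (log2 difference 2.43 ± 0.44 SE, edgeR adjusted p = 0.00121). The upstream V genes were found with the *Trdd1* to TEAp interval in 0.544%, 0.683% and 0.848% of DP pairs and in no liver pair, at least 4.43-fold more (edgeR adjusted p = 0.00366). V genes on one side and *Tcrd* on the other thus met at the bait in every DP library.

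Contacts of the bait neighbourhood itself with the far end ran the same way. With *Trdd1* to TEAp it made up 1.73%, 2.05% and 1.96% of DP pairs and 1 liver read, a ratio of 36.8 (95% counting interval 6.61 to 1454, edgeR adjusted p = 3.76e-04). With *Trac* and Eα it made up 0.589%, 0.623% and 0.392% of DP pairs and no liver read, at least 3.43-fold more (edgeR adjusted p = 0.00621). With the upstream V genes and with the proximal V region it did not pass, at 6.23% to 6.59% against 5.29% and 5.78% and at 7.52% to 8.30% against 8.42% and 9.33% (edgeR adjusted p = 0.364 and 0.414).

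The proximal V region was found together with the INT interval in 1.196%, 1.223% and 1.453% of DP pairs and 0.321% and none of liver pairs (log2 difference 2.67 ± 0.71 SE, edgeR adjusted p = 0.0064). With TEAp and the first Jα genes it made up 0.215%, 0.288% and 0.304% of DP pairs and no liver pair, at least 1.72-fold more (edgeR adjusted p = 0.0215). With *Trac* and Eα it made up 0.449%, 0.521% and 0.503% and no liver pair, at least 3.15-fold more (edgeR adjusted p = 0.00621). The proximal V region, which held a lower share of all fragments in DP thymocytes, therefore gave a higher share of pairs with an INT, TEAp or Eα fragment.

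Among the far elements, the INT interval with *Trdd1* to TEAp made up 0.873%, 1.28% and 1.00% of DP pairs and with the rest of the Jα array 0.772%, 1.01% and 0.730%, and no liver read held either. The bounds were at least 6.74-fold and 5.36-fold (edgeR adjusted p = 0.00204 and 0.00314). With *Trac* and Eα it made up 0.196%, 0.282% and 0.327% and no liver pair, at least 1.72-fold more (edgeR adjusted p = 0.0225), a call lost with DESeq2 (adjusted p = 0.110). With TEAp and the first Jα genes it made up 0.133%, 0.186% and 0.594% and no liver pair, and did not pass (edgeR adjusted p = 0.0517). TEAp with *Trac* and Eα made up 0.038%, 0.006% and 0.047%, under the liver floor, so liver was too shallow for a comparison. The INT elements with themselves made up 1.03%, 1.98% and 1.36% against 0.722% and 0.741% (edgeR adjusted p = 0.102), so within the INT interval no difference passed.

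The remaining higher combinations ranged from the *Dad1* flank joined with *Trdd1* to TEAp, with 0.171%, 0.204% and 0.232% of DP pairs and none in liver, to the proximal V region joined with the stretch from *Trdv2-2* to the INT elements, with 3.93%, 3.34% and 3.92% against 1.36% and 1.33%. TEAp and the first Jα genes with themselves was the only combination of an interval with itself that was higher, at 0.221%, 0.180% and 0.235% against none (at least 1.36-fold, edgeR adjusted p = 0.0364). It lies just above what the liver depth can show.

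EACBE-/- DP thymocytes were compared with the same liver libraries, so the values stand beside those of the intact cells and are not a separate line of evidence. Their 3 libraries held 14264, 13114 and 12509 pairs in the region. Pairs with 1 fragment on each side of the bait made up 20.7%, 18.7% and 21.0%, same-bin pairs 23.89%, 24.99% and 25.09%, and the decay slope was -0.72, -0.66 and -0.74, none overlapping liver (exact permutation p = 0.1 for each). On these 3 measures the cells without EACBE thus lay away from liver, as did those with it. The share of window pairs that lay wholly in the region differed in this respect, at 62.8%, 60.8% and 64.2% without EACBE, below both liver libraries (exact permutation p = 0.1), where intact cells overlapped them.

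By interval, 9 of 11 did not overlap liver (81.8%). *Trac* and Eα held 0.655%, 0.930% and 0.943% of the EACBE-/- fragments, at least 10.8-fold above the liver floor, where intact cells were at least 19.7-fold above it. *Dad1* and its flank held 7.19%, 7.02% and 6.43%, above both liver libraries, whereas the intact cells (4.44%, 3.91% and 3.93%) overlapped them. The *Trdd1* to TEAp interval held 4.64%, 4.82% and 4.25% and overlapped liver, whereas the intact cells (6.25%, 6.96% and 6.46%) did not. The INT interval held 3.86%, 4.05% and 3.89% and the proximal V region 27.1%, 25.7% and 27.4%, on the same side of liver as the intact cells. The EACBE-/- share of *Trac* and Eα was below that of every intact library and that of *Dad1* above it.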

How the data were processed

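Three-way contacts were measured by 3C-HTGTS in 33 libraries, of which the 3 DP and 2 liver libraries of the *Trav17* bait were compared and 3 EACBE-/- DP libraries set beside them. Cells were fixed in 1% formaldehyde and cut with 200 units of MboI. The authors trimmed, merged and aligned reads to mm10, retained reads that crossed the bait and 2 or more further fragments, and deposited counts of reads per pair of 5 kb bins, neither normalized nor pooled. For the DP libraries other deposited columns give each read's fragments. Re-binned, these matched the counts in every bin pair, and they gave the distinct pairs. The submitters' processing notes name Bowtie2 2.4.5, SAMtools 1.9, bedtools 2.29.2, cutadapt 1.18, fastp 0.20.0 and DESeq2 1.34.0. PCR copies remain in the counts, and the liver libraries (675 and 1247 pairs in the region) are far shallower than the DP libraries (15802 to 71922), which widens their error and leaves many bins at 0.

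A bin holds the fragments that end in it. Bins were summed into 11 intervals (GENCODE vM21 genes, mm10), of which the INT interval was placed from the INT2 bait. The shares were first meant to be of chromosome 14 pairs, but the counts cover the window alone, so the window was the denominator. Shares and slopes were tested over libraries by exact permutation (two-sided). Counts per bin and per interval pair with at least 10 reads were tested with edgeR 4.0.16 (quasi-likelihood, library size equal to the region total, Benjamini-Hochberg adjusted p under 0.05) in R 4.3.3, checked on simulated counts, and with DESeq2 1.42.0 as an alternative. Other steps used Python 3.11.15. Counting intervals are exact, at 95%.

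Named bins are those of the bait, INT2, *Trdd2*, TEAp, *Traj61*, *Trac*, Eα, *Dad1* and the proximal V genes, and up to 10 in each direction with the largest log2 difference among called bins without overlap. Interval pairs are those called or joining INT, TEAp and Eα. The bins of *Trdv1*, of *Trav3-4*, before INT2, past *Trdd2* and between Eα and *Dad1* were added after their values were seen. The members, intervals and lists were chosen with earlier results of these data known. Alternatives were TMM and DESeq2 scaling, no count filter, pairs in a single bin or at the bait left out, the whole window, distinct pairs, presence at equal depth, 10 kb bins, other distance limits, each library left out and a replicate block. Leaving out the most frequent bin pair, the shares by distance between fragments, and replicates 1 and 2 without a block were added after seeing the data.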

Additional observations from a re-analysis of the deposited data

How the results depend on the processing

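Depth in liver, 1247 and 675 pairs, limits the comparison: a bin or combination without liver reads has only a bound, and a share below 0.120% and 0.222% of fragments is not measured in single libraries. Pair classes that span the bait, same-bin pairs, and the shares of the proximal V region, the INT interval, TEAp with the first Jα genes, and *Trac* with Eα kept their direction under every alternative run. Measures whose groups overlapped mostly did not keep theirs, the Jα genes from *Traj55* to *Traj1* being the exception. The difference in region share (0.103 points) was 6.19 at equal depth and 3.64 without same-bin pairs, where the groups did not overlap, but -1.26 with distinct DP pairs and -1.13 to 0.888 with a library left out. The difference in downstream share (1.04) was -0.0183 with distinct pairs, -3.14 without pairs at the bait, -0.935 over the window and -1.36 to 3.44 with a library left out. Pairs with both fragments upstream (-4.58) came to 1.78 without pairs at the bait, and the slope difference (0.28) to -0.70 on the upstream side alone. The bait neighbourhood (-0.486) came to 1.09 without pairs at the bait, to 1.04 with the replicate block and ranged from -1.43 to 1.04 with a library left out. The stretch from *Trdv2-2* to the INT elements (0.698) came to -0.961 without same-bin pairs and ranged from -0.322 to 1.72, and *Dad1* with its flank (1.08) from -0.206 to 2.37, with a library left out. Among single bins, the log2 difference turned without same-bin pairs in the bins of the bait (-0.34), *Trav17* (-0.031), *Trav21-dv12* (1.38) and *Trdv2-2* (-0.58). With the most frequent bin pair of each library left out the values were -0.15 at the bait and 1.195 at *Trav18*, turns that follow from the setting's construction, since that pair held the bait bin in the DP libraries alone and the *Trav18* bin in the liver libraries alone. It also turned with DESeq2 at *Trdv2-2* (-0.095) and *Trdv3* (-0.18), and with a library left out at *Trav21-dv12* (-0.11 to 0.016, above 0 without DP replicate 1) and *Trdv3* (-0.92 to 3.14, below 0 without liver replicate 1). TEAp joined with *Trac* and Eα turned with DESeq2 (-0.25). The cause was not tested. Of the 35 called bins, 12 were left without DP replicate 2 and 17 without DP replicate 3, with a range of 12 to 51 over the libraries left out, and 15 of 55 bins were called at 10 kb. Of the 37 called interval pairs, 4 were left without DP replicate 2, with a range of 4 to 33, and DESeq2 and leaving out same-bin pairs each called 19. At an unadjusted p under 0.05 there were 37 bins and 34 interval pairs without DP replicate 2. Replicates 1 and 2 carry the same numbers in both tissues, and the deviations of same-numbered libraries from their group means correlated at -0.23 and -0.076. With 2 liver libraries the deviations of one mirror those of the other, so these values cannot decide whether the numbers pair libraries. The main tests took the libraries as unpaired. With a replicate block, 11 bins and 1 interval pair were called, against 17 and 26 for replicates 1 and 2 without the block, and the slope difference was 0.31.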
